A study of Mus musculus with 22 samples.

Results

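Tryptophan is broken down to kynurenine by a short chain of enzymes, and in tumors this route is known as an immunosuppressive one, since it takes tryptophan from T cells and releases kynurenine, a ligand of the aryl hydrocarbon receptor. Ido1, Ido2 and Tdo2 open the indole ring of tryptophan, Afmid turns the product into kynurenine, and Kmo, Kynu and Haao carry kynurenine on towards quinolinic acid and NAD. Wars, the cytosolic tryptophanyl-tRNA synthetase, loads tryptophan onto its tRNA and is a textbook interferon-gamma-induced gene in human cells. These 8 genes were chosen by name as the ring-opening and kynurenine-processing enzymes plus Wars. All 8 were among the 46882 genes of the table, and 5 of them (Afmid, Kynu, Kmo, Haao and Wars) averaged 5 normalized counts or more across the 12 tumors and were tested there, whereas Ido1, Ido2 and Tdo2 averaged less and were described by their reads.

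RNA from the 3′ ends of transcripts was sequenced (QuantSeq, a method that reads 1 short fragment near the poly(A) tail of each transcript) in 16 libraries. MC38, a mouse colon adenocarcinoma cell line, had been injected under the skin of mice of 8 to 12 weeks of age. The 12 tumors were 3 of day 23 and 3 of day 46 from wild-type C57BL/6N mice, and 3 of day 13 and 3 of day 23 from mice labelled RAG1-/- (B6.129S7-Rag1tm1Mom/J, which lack mature T and B cells). The other libraries were 2 of MC38 cells and 2 of skin of wild-type C57BL/6N mice labelled day 23. No label says whether the MC38 libraries were separate cultures, so p-values against them may measure technical spread alone. The genotypes also differ in strain background, and only day 23 was sampled in both.

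Between 5589151 and 26134241 reads per library fell on genes, and the RAG1-/- day 23 replicate 2 library was the shallowest. A floor of 3 reads corresponded to 1.33 to 6.38 normalized counts, and counts of 0 below that floor do not show absence. Rag1 itself gave at most 1 read in the wild-type tumors and 1 to 12 reads in the RAG1-/- tumors, but no label says which stretch of the gene this allele lacks, so these 3′ reads check nothing. The summed level of 7 T cell markers ran from 24.4 to 292 in the wild-type and from 1.11 to 28.6 normalized counts in the RAG1-/- tumors, with Cd3e, Cd3g and Cd8b1 at 0 in all 6 of the latter, and limma called 5 of the 6 T cell markers tested (Cd3d, Cd3e, Cd8a, Cd8b1 and Trbc2) and the B cell gene Igkc higher in the wild-type tumors over both days. The tumors, labelled as tumor cells, held host cells too: 7 macrophage markers summed to 10308 to 18223 in the tumors and to 43.6 to 66.5 in MC38 cells, where Adgre1 and Mrc1 were at 0. Of the 7 colon epithelium markers, Krt18, Krt20 and Cdx2 were at 0 in MC38 cells and the sum of all 7 was 4.28 to 11.7. In such bulk RNA, fewer cells of a type and less RNA per cell cannot be told apart.

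The first step of the route was read at trace level in the tumors. Ido1 (chr8:24584136-24597009, minus strand), the interferon-induced dioxygenase, gave 11, 0 and 1 reads in the wild-type tumors at day 23, which is 8.11, 0 and 1.58 normalized counts. It gave 0, 3 and 7 reads (0, 2.01 and 4.39 normalized counts) at day 46. All 6 RAG1-/- tumors and both MC38 libraries were at 0, and the skin libraries had 0 and 2 reads. Ido1 reads were thus found in 4 of 6 wild-type and 0 of 6 RAG1-/- tumors, and 2 wild-type tumors overlapped the RAG1-/- ones at 0. Over all reads, Ido1 was 6.44-fold higher in the wild-type tumors, taking 3 reads over the 6 RAG1-/- libraries as the floor. The exact interval for counting error began at 4.81-fold. Without WT day 23 replicate 1, which held 11 of the 22 reads, Ido1 was 3.96-fold higher over the same floor. Between tumors the difference did not pass an exact two-sided permutation test on log2(normalized count + 1) (p = 0.0606, where 0.00216 is the smallest possible with 6 against 6), and the p was 0.0152 without WT day 23 replicate 2 or without WT day 46 replicate 1, the 2 wild-type tumors at 0.

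Ido2 (chr8:24531892-24576333, minus strand), the neighbouring paralog of low activity, was as rare. The wild-type tumors of day 23 had 12, 4 and 3 reads, those of day 46 had 0, 2 and 7. The RAG1-/- tumors had 0, 0 and 1 reads (day 13) or 0, 0 and 5 (day 23), MC38 cells 4 and 0, and skin 2 and 0. At day 23 the wild-type tumors (3.41 to 8.85 normalized counts) lay above all 3 RAG1-/- tumors (0 to 2.21). The exact permutation p over both days was 0.0346 without adjustment for other genes and rose to at most 0.0606 when 1 library was left out. It was over 0.05 when leaving out any 1 of WT day 23 replicates 1, 2 and 3, WT day 46 replicate 3, RAG1-/- day 13 replicates 1 and 2, and RAG1-/- day 23 replicates 1 and 2.

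Dendritic cells are a known source of Ido1. The summed level of 8 dendritic cell markers was 805 to 1252 normalized counts in the wild-type tumors at day 23, 610 to 730 in those at day 46, 526 to 681 in the RAG1-/- tumors at day 13 and 381 to 704 at day 23. The wild-type tumors of day 23 lay above the other groups, and those of day 46 overlapped with the RAG1-/- tumors. MC38 cells summed to 103 to 112. Of the 8 markers, Xcr1 alone was at 0 in all 6 RAG1-/- tumors. In the wild-type tumors 5 markers had a read in every library, and in the RAG1-/- tumors 4 had. By limma, 0 of the 4 dendritic cell markers with enough counts were called between the genotypes over both days (median log2 fold change 0.36, against 0.01 over all genes tested), and under upper quartile scaling 1 of 5 was called higher. At day 23 limma called 0 of the 4, with log2 fold changes of 1.17 for Itgax, 0.39 for Batf3, 0.04 for Zbtb46 and -0.19 for Ccr7. The part of dendritic cells in the Ido1 and Ido2 reads was not tested.

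Tdo2 (chr3:81957090-81976202, minus strand), best known as the tryptophan dioxygenase of liver, was a skin gene in these libraries. It gave 25 and 32 reads in skin (33.5 and 40.8 normalized counts), 1 and 0 reads in MC38 cells, and 0 reads in all 12 tumors. Skin was 169-fold higher than the tumors, taking 3 reads over the 12 tumor libraries as the floor (exact 95% counting interval from 133-fold). Against MC38 cells, with 57 reads in skin and 1 in the cells, the ratio was 81.6 with an exact 95% interval of 14.1 to 3279, which covers counting error only. Tdo2 reached the mean of 5 normalized counts in the comparisons with skin through skin alone, so that its calls there carry no weight.

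**Figure D1:**
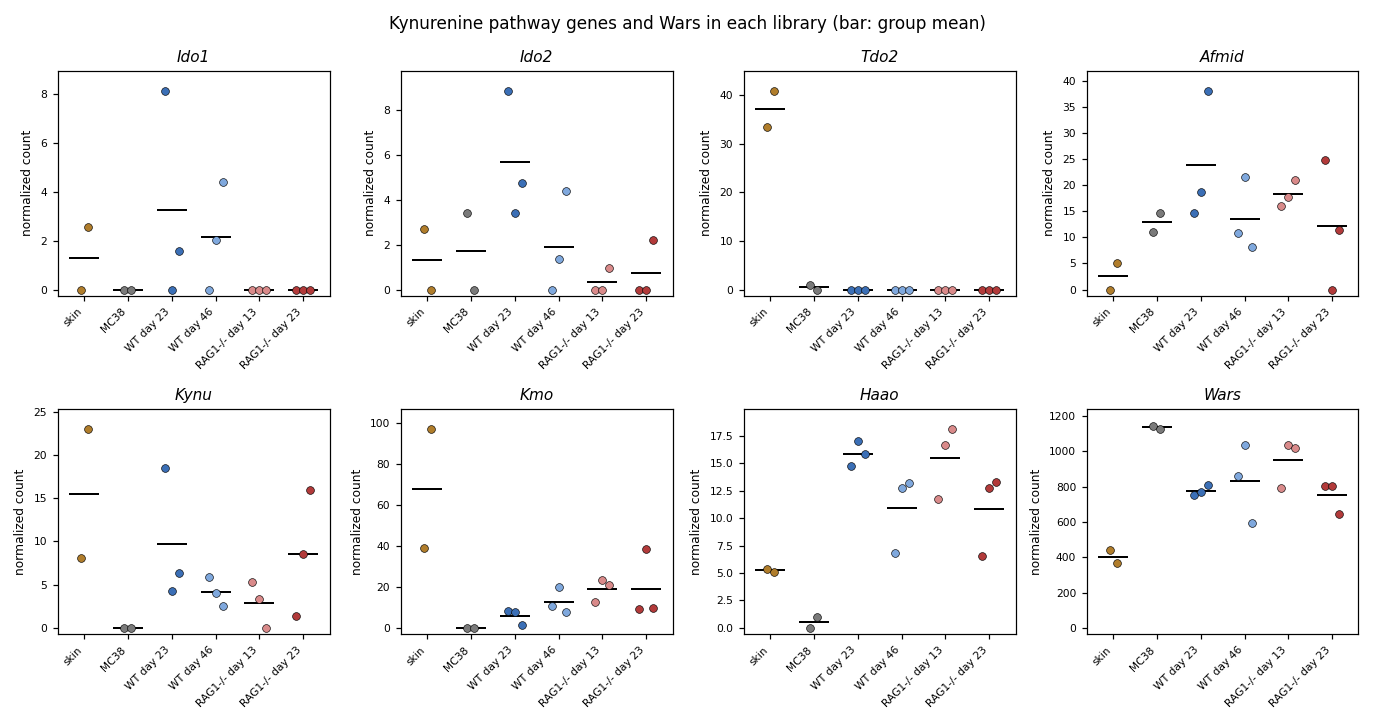
Normalized counts (vertical axes, linear, each panel on its own scale) of the 8 genes in each library by group, with 1 point per library and a bar at the group mean. Tdo2 was at 0 in the 12 tumors, Ido1 was at 0 in the 6 RAG1-/- tumors, and Wars lay between 596 and 1038.5 in the tumors, above skin (366 and 442) and below MC38 cells (1129 and 1142).

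Afmid (chr11:117825924-117839908, plus strand), the formamidase that releases kynurenine, was the pathway gene read most evenly in MC38 cells and tumors. Its normalized counts were 14.8, 18.8 and 38.0 in the wild-type tumors at day 23, and 10.8, 21.5 and 8.16 at day 46. In the RAG1-/- tumors they were 16.05, 17.8 and 21.0 at day 13 and 24.9, 0 and 11.5 at day 23, the 0 being in the shallowest library. MC38 cells had 11.1 and 14.7, and skin 0 and 5.10. The tumor groups and MC38 cells overlapped, and skin lay below MC38 cells. In the GENCODE annotation of GRCm38 (vM21, which may not be the one the authors counted with), 99.2% of the last 500 exonic bases of Afmid are shared with Gm20708 on the same strand. Gm20708 was at 0 in every library, so the Afmid values may miss reads that were assigned to neither gene.

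Kmo (chr1:175620381-175662116, plus strand), the kynurenine 3-monooxygenase found in macrophages and microglia, ran highest in skin, was present in every tumor and was not read in MC38 cells. Its normalized counts in the wild-type tumors were 8.11, 7.67 and 1.58 at day 23 and 10.8, 20.1 and 7.53 at day 46. In the RAG1-/- tumors they were 12.8, 23.3 and 21.0 at day 13 and 9.16, 38.3 and 9.72 at day 23. All 3 wild-type tumors at day 23 lay below all 6 RAG1-/- tumors, while those at day 46 overlapped with them. The 2 skin libraries had 38.8 and 96.9, above every tumor, and both MC38 libraries had 0 reads.

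Kynu (chr2:43555329-43682715, plus strand), kynureninase, had the same order of skin over tumors over MC38 cells in its group means. Its normalized counts were 18.4, 4.26 and 6.34 in the wild-type tumors at day 23 and 5.86, 4.03 and 2.51 at day 46. They were 5.35, 3.34 and 0 in the RAG1-/- tumors at day 13 and 1.31, 8.51 and 15.9 at day 23. Skin had 8.04 and 22.9 and overlapped with the tumors, and MC38 cells had 0 reads in both libraries.

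Haao (chr17:83831156-83847963, minus strand), the dioxygenase that makes the precursor of quinolinic acid, was the 1 enzyme of the 7 that lay above skin in every tumor and near 0 in MC38 cells. Its normalized counts in the wild-type tumors were 14.8, 17.0 and 15.8 at day 23 and 6.84, 12.8 and 13.2 at day 46. They were 11.8, 16.7 and 18.1 in the RAG1-/- tumors at day 13 and 6.55, 12.8 and 13.3 at day 23. Skin had 5.36 and 5.10, and MC38 cells had 0 and 0.978, the latter being 1 read. Ranked by their means, each tumor group overlapped with the next, whereas the wild-type groups of day 23 and day 46 did not overlap with each other. Tumors, skin and MC38 cells did not overlap, but skin had 4 reads in each library, close to the floors of 4.02 and 3.82 normalized counts. The lowest tumor, RAG1-/- day 23 replicate 1, had 5 reads, so that its gap to skin is not resolved.

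Wars (chr12:108860030-108894174, minus strand) had the most reads of the 8 genes in every library. It measured 751, 772 and 811 in the wild-type tumors at day 23 and 858, 1038 and 596 at day 46. It measured 791, 1038.5 and 1018 in the RAG1-/- tumors at day 13 and 804, 806 and 644 at day 23. MC38 cells had the highest levels (1142 and 1129) and skin the lowest (442 and 366), and neither overlapped with any tumor.

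The comparison of wild-type with RAG1-/- tumors asks what differs in a tumor that grows with T and B cells. None of the 5 tested genes of the set passed the test. Over both days, limma on log2(normalized count + 1) called 0 of 5, beside 0.712% of the 14746 genes tested, with 1 of the 5 (Kmo) under an unadjusted p of 0.05, and edgeR and DESeq2 on the recovered reads also called 0 of 5. The fitted log2 difference, wild-type minus RAG1-/-, was -1.03 ± 0.48 (SE, 6 against 6) for Kmo, with an adjusted p of 0.43. It was 0.53 ± 0.64 for Kynu, 0.62 ± 0.63 for Afmid and 0.03 ± 0.35 for Haao, and the last 2 of these changed sign when single libraries were left out. For Wars it was -0.08 ± 0.14 with a 95% interval of -0.37 to 0.21, that is, a ratio between 0.774 and 1.16, and it became 0.03 without WT day 46 replicate 3.

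At day 23 alone, limma called 0 of 5 of these genes, beside 0.278% of all genes, again with Kmo as the 1 gene under an unadjusted p of 0.05 and with 0 of 5 by edgeR and DESeq2. Kmo differed by -1.46 ± 0.67 (SE, 3 against 3, adjusted p by limma 0.44) with no overlap of the groups. Haao differed by 0.56 ± 0.49 in the opposite direction (adjusted p by limma 0.71), also with no overlap, the wild-type tumors being the higher. Afmid differed by 1.74 ± 0.89 (adjusted p by limma 0.50), and the 0 of the shallowest RAG1-/- library lies in this value. With 3 against 3, an exact permutation test cannot go below p = 0.1, which Kmo, Haao and Ido2 reached. Here and in the other comparisons the share of all genes without overlap is not given. A lack of overlap is therefore a description only and is not read as a result.

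**Figure D2:**
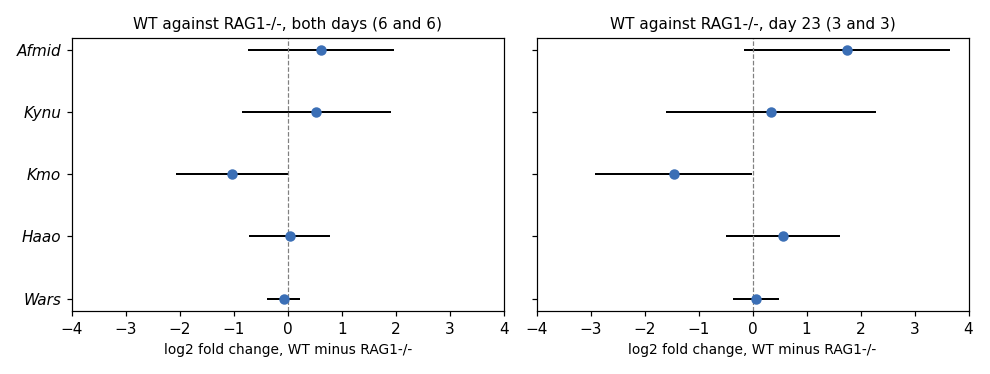
Log2 fold change (horizontal axes, wild-type minus RAG1-/-, with 95% intervals from limma) of the 5 tested genes over both days and at day 23. The interval of Wars was the narrowest at -0.37 to 0.21 over both days, and no gene passed an adjusted p of 0.05.

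Of the 7 macrophage markers, limma called 0 between the genotypes over both days, with a median log2 fold change of 0.17, and 0 at day 23 (median 0.15). At day 23 Mrc1 differed by -1.003 (95% interval -1.91 to -0.10) and C1qa by 0.85 (0.38 to 1.31), with adjusted p by limma of 0.40 and 0.13. From day 23 to day 46 in wild-type tumors Kmo differed by 1.13 ± 0.67. In that comparison limma called 0 of the 7 markers, with a median of -0.04 and a range of -0.49 to 1.65. The highest was Mrc1 (1.65 ± 0.42, adjusted p by limma 0.39). The summed level of the 7 markers was 10966 to 18223 in the wild-type and 10308 to 16298 in the RAG1-/- tumors. WT day 23 replicate 3, with 1 Kmo read, had a macrophage sum of 12358, within the range of the RAG1-/- tumors. The part of macrophages in the Kmo values was not tested. The 5 keratinocyte markers summed to 227 to 1734 in the tumors and to 266457 to 272995 in skin, so that the highest tumor was at 0.651% of the lowest skin library. That share was 10.4% for 4 fibroblast, 9.23% for 3 skeletal muscle and 9.78% for 3 adipocyte markers. The part of skin or of such tissue in the Kmo and Kynu reads was not tested.

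**Figure D3:**
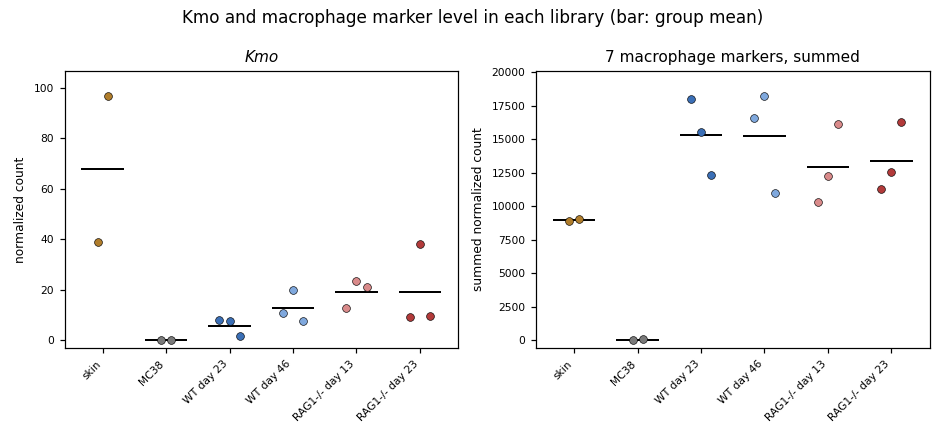
Kmo normalized counts and the summed normalized counts of 7 macrophage markers (linear axes) in each library by group, with 1 point per library and a bar at the group mean. MC38 cells were at 0 for Kmo and at 43.6 and 66.5 for the markers. Skin lay above the tumors for Kmo (38.8 and 96.9) and below them for the markers (8896 and 9070).

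Irf1, an interferon-induced transcription factor, was called between the genotypes at day 23 and Wars was not. Irf1 measured 2516, 1834 and 1651 normalized counts in the wild-type tumors at day 23 and 746, 1015 and 1087 in the RAG1-/- tumors of that day, with no overlap. It was higher in the wild-type tumors by 1.07 ± 0.21 (SE, adjusted p by limma 0.044), a call that was lost under upper quartile and under total scaling. The wild-type tumors at day 46 (1091, 1110 and 1662) overlapped with the RAG1-/- tumors at day 13 (1164, 1191 and 976), and Irf1 was not called over both days (0.63 ± 0.15, adjusted p by limma 0.066). Of the 7 interferon-gamma signal genes reported here, limma called 0 over both days, with a median log2 fold change of 0.25 against 0.01 over all genes tested, and 1 (Irf1) at day 23. Ifng itself was at 1.26 to 22.9 normalized counts in the wild-type tumors and at 0 to 5.24 in the RAG1-/- tumors, and its difference of 2.23 ± 0.69 was not called (adjusted p by limma 0.20).

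**Figure D4:**
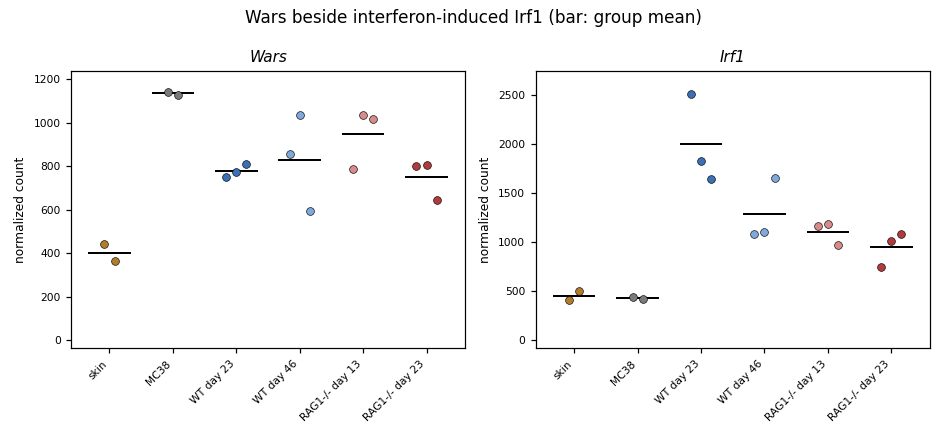
Normalized counts (linear axes) of Wars and Irf1 in each library by group, with 1 point per library and a bar at the group mean. At day 23 Irf1 lay at 1651 to 2516 in the wild-type and at 746 to 1087 in the RAG1-/- tumors, whereas Wars overlapped (751 to 811 and 644 to 806). Over both days the genotypes overlapped for Wars (596 to 1038 and 644 to 1038.5) and for Irf1 (1091 to 2516 and 746 to 1191).

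Wars was the 1 gene of the set that averaged 20 normalized counts or more across the 12 tumors, and its pattern was compared with that of 12068 genes above the same mean. The closest were Prdx6 (Pearson r = 0.90 over 12 tumors), a peroxiredoxin, Twistnb (r = 0.84), an RNA polymerase I subunit, and Pgbd5 (r = 0.83), a transposase-derived gene. The r with Irf1 was -0.35. After the mean of each tumor group was taken out, r was 0.94, 0.81 and 0.79 for these 3 genes and -0.67 for Irf1. These values are descriptions over libraries that share group differences and depth, and as the best of many they are high by selection.

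Time within a genotype gave no call in the set. From day 23 to day 46 in wild-type tumors limma called 0 of 5 genes and 0% of all genes, with 0 of 5 under an unadjusted p of 0.05 and 1261 of all 14746, while edgeR called 0 and DESeq2 41 of all genes and both called 0 of 5. Kmo differed by 1.13 ± 0.67 (day 46 minus day 23) and Haao by -0.55 ± 0.49, without overlap for Haao. From day 13 to day 23 in RAG1-/- tumors limma called 0 of 5 and 0% of all genes, with 0 of 5 under an unadjusted p of 0.05 and 1722 of all genes, while edgeR called 0 and DESeq2 206 of all genes and both called 0 of 5. Wars differed by -0.33 ± 0.19 (day 23 minus day 13, adjusted p by limma 0.53).

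The comparison of tumors with the injected cells shows which of these genes were read in tumors but hardly in the cells that were injected. Kmo, Haao and Kynu were higher in wild-type tumors and Wars was lower. By limma 4 of 5 were called in wild-type tumors, beside 27.9% of all 14708 genes tested, and 2 of 5 (Kmo and Haao) in RAG1-/- tumors, beside 23.3%. Kmo had 74 reads in the wild-type and 102 in the RAG1-/- tumors and 0 in MC38 cells (adjusted p by limma 0.0021 and 0.00016). Taking 3 reads over both MC38 libraries as the floor, it was 7.44-fold and 11.7-fold higher. The exact 95% counting intervals began at 5.90-fold and 9.33-fold. Kynu, with 50 and 49 reads, was 5.03-fold and 5.61-fold higher over the same floor, with intervals from 3.94-fold and 4.39-fold (adjusted p by limma 0.029 and 0.084). Haao had 97 and 86 reads against 1 in MC38 cells, which gives ratios of 29.3 (exact 95% counting interval 5.13 to 1168) and 29.5 (5.16 to 1180), with adjusted p by limma 0.00011 and 0.00014. By edgeR and by DESeq2, 3 of 5 were called in RAG1-/- tumors, beside 23% and 26% of all genes. Kmo, Kynu and Haao passed the minimum mean through the tumors alone, which fixed the direction of their difference in advance. Kynu was still not called by limma in RAG1-/- tumors. That leaves Wars and Afmid as the genes whose test was open.

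Afmid was not called against MC38 cells in either genotype (adjusted p by limma 0.81 and 0.87). Wars was lower than in MC38 cells by 0.52 ± 0.18 on the log2 scale in wild-type tumors (adjusted p by limma 0.043) and differed by -0.44 ± 0.18 in RAG1-/- tumors (0.096). The wild-type call on Wars was close to the threshold: it was lost when either MC38 library was left out (adjusted p by limma 0.208 and 0.205), under upper quartile scaling (-0.35, 0.215), without a filter on low genes (0.079) and without the trend (0.087). Leaving out any 1 of WT day 23 replicates 1, 2 and 3, WT day 46 replicate 3 and RAG1-/- day 13 replicates 2 and 3 also ended it, with adjusted p by limma of 0.052 to 0.066. The call on Kynu was lost without MC38 replicate 1, MC38 replicate 2 or WT day 23 replicate 1, which left 2 genes called each time. The 2 genotypes share the MC38 libraries here.

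Wars was not alone among the synthetases. Of the other 19 cytosolic tRNA synthetases, 8 were lower in wild-type tumors than in MC38 cells and none higher, beside 9.61% of all genes called lower, and with a median log2 fold change of -0.51 against 0.05 over all genes tested. The 8 were Aars, Eprs, Gars, Lars, Mars, Nars, Rars and Tars, with Tars the furthest at -0.98 ± 0.17. In RAG1-/- tumors 5 of 19 were lower (median -0.33 against 0.06), beside 7.55% of all genes. Under upper quartile scaling, which raised the median of all genes to 0.21 and 0.16, 4 and 2 of 19 were lower, beside 621 and 600 of all genes. Between the genotypes 0 of 19 were called by limma over both days, with a median of -0.18 against 0.01 over all genes tested. The mitochondrial Wars2 was not called in any of these comparisons (-0.68 against MC38 cells in wild-type tumors).

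**Figure D5:**
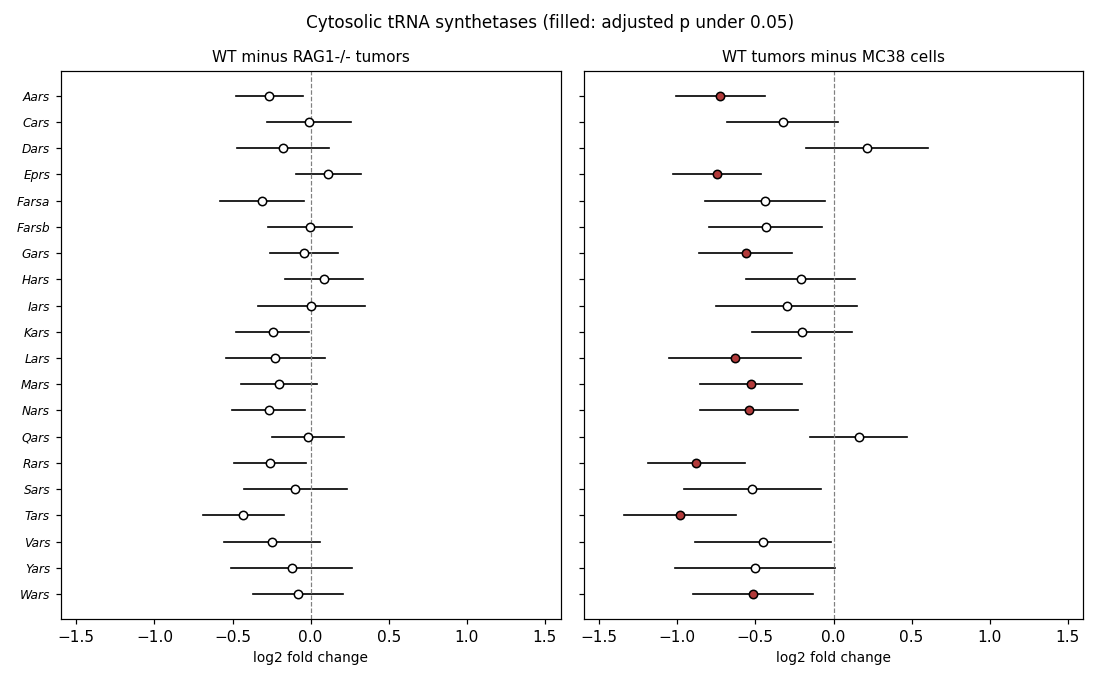
Log2 fold change (horizontal axes, with 95% intervals from limma) of Wars and the other 19 cytosolic tRNA synthetases between wild-type and RAG1-/- tumors and between wild-type tumors and MC38 cells, with filled points at an adjusted p under 0.05. None was filled in the former and 9 in the latter, Wars (-0.52) among them, all below 0.

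Against skin the set split. Wild-type tumors had more Wars, Afmid and Haao and less Kmo, and 5 of 6 tested genes were called, Tdo2 included, beside 57% of 16259 genes. The median over all genes in this comparison was -0.18, and it moved to 0.23 under total scaling, where the share of higher genes among the called rose from 40.0% to 57.7%. Wars was higher by 0.98 ± 0.19, Afmid by 2.83 ± 0.98 and Haao by 1.16 ± 0.43, and Kmo differed by -2.84 ± 0.66 (adjusted p by limma 0.00053, 0.023, 0.033 and 0.0021). Afmid passed the minimum mean through the tumors alone and Tdo2 through skin alone, so that their calls carry no weight. Kynu was not called (-1.13 ± 0.83, adjusted p 0.26). Without skin replicate 1 the calls left were Kmo and Wars, and without skin replicate 2 Afmid and Wars. The call on Haao was also lost without WT day 46 replicate 2 or 3 (adjusted p by limma 0.058 and 0.055), without a filter on low genes (0.083) and by DESeq2 (0.11).

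MC38 cells against skin gave 4 calls among 5 tested genes, beside 62% of 16780 genes, with a median over all genes of -0.40 that total scaling moved to 0.03. Wars was higher in the cells by 1.495 ± 0.16 (adjusted p by limma 0.0013). Kmo and Kynu, at 0 in the cells, were higher in skin by factors of 50.1 and 11.5 (105 and 24 reads). These factors take 3 reads over both MC38 libraries as the floor, and their exact counting intervals began at 40.0 and 8.62. Kmo and Kynu were called lower in the cells together with Tdo2, each having passed the minimum through skin alone. Afmid was not called (2.48 ± 0.94, adjusted p by limma 0.073). It was called with a pseudocount of 5 and under total scaling, at adjusted p by limma of 0.0451 and 0.0495. Leaving out 1 library moved its log2 fold change between 1.18 and 3.78. Afmid passed the minimum through MC38 cells alone (mean 12.9 against 2.55 in skin), so that these calls carry no weight.

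Between wild-type and RAG1-/- tumors over both days limma called 0 of 7 tested other enzymes of the kynurenine pathway (median log2 fold change 0.04), 0 of 7 transporters (0.03), 0 of 5 genes of the kynurenine receptor and its targets (0.04), 0 of 7 genes of the amino acid shortage response (-0.16) and 0 of 3 genes of other tryptophan routes (0.65), against 0.01 over all genes tested. Il4i1, a tryptophan-oxidising enzyme, could not be separated from Tbc1d17, whose exons lie opposite 100% of its last 500 exonic bases in GENCODE vM21, since the strand setting of the counting is not given in the sources used here.

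Several of these genes set the tumors apart from the injected cells. Gpr35, a receptor for kynurenic acid, was at 0 in MC38 cells and at 47.7 to 195 normalized counts in the 12 tumors. It was 76.8-fold higher in the tumors over 3 reads in both MC38 libraries (interval from 62.4-fold). Slc7a8, a neutral amino acid transporter, was also at 0 in MC38 cells and at 23.6 to 68.6 in the tumors, 33.6-fold higher (interval from 27.3-fold). Cyp1b1, a target of the aryl hydrocarbon receptor, was 21.2-fold higher (0 against 0.442 to 133, interval from 17.2-fold). These 3 genes passed limma in both genotypes, and they too had passed the minimum mean through the tumors alone.

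Ahr, the aryl hydrocarbon receptor itself, and the cystine transporter Slc7a11 went the other way. Ahr had 829 and 867 normalized counts in MC38 cells and 67.8 to 342 in the tumors, with log2 fold changes of -2.55 ± 0.37 in wild-type and -2.59 ± 0.37 in RAG1-/- tumors (adjusted p by limma 3.87e-05 and 3.78e-05). Slc7a11 had 2944 and 3244 in MC38 cells and 207 to 613 in the tumors (-3.11 ± 0.32 and -3.03 ± 0.32, adjusted p by limma 5.27e-07 and 8.49e-07). Got2, a mitochondrial aminotransferase that can form kynurenic acid, was lower by 1.01 ± 0.16 and 1.03 ± 0.16 (adjusted p by limma 7.56e-05 and 6.83e-05). The transporter Slc36a4 was higher in wild-type tumors (1.06 ± 0.23, adjusted p by limma 0.0023) and the Ahr partner Arnt lower in RAG1-/- tumors (-0.63 ± 0.21, 0.036), and the difference between the genotypes was not called for either (adjusted p by limma 0.24 and 0.59).

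Cyp1a1, the classical Ahr target, was read in skin (214 and 268 normalized counts) and had 0 reads in all 12 tumors. The tumors were 1093-fold lower than skin over 3 reads in the 12 libraries (interval from 885-fold). Cyp1a1 was at 1.96 and 5.13 in MC38 cells. Against skin, where 57% of all genes were called, limma called 5 of the 7 receptor and target genes lower in wild-type tumors (Ahr, Arnt, Ahrr, Cyp1a1 and Cyp1b1) and 1 higher, the target Tiparp (1.68 ± 0.25, adjusted p 5.57e-05). Of the 8 transporters, 4 were lower (Slc6a14, Slc6a19, Slc7a8 and Slc36a4), with log2 fold changes from -8.65 for Slc6a14 to -0.61 for Slc36a4, and 1 was higher, Slc3a2 (0.92 ± 0.32, adjusted p by limma 0.023), the heavy chain of the large neutral amino acid transporter. Of the 8 other enzymes tested, 4 were lower and 0 higher: the kynurenine aminotransferases Ccbl1 (-3.44 ± 0.44) and Ccbl2 (-1.26 ± 0.41) and the NAD-forming Nmnat2 (-2.61 ± 0.76) and Nmnat3 (-1.98 ± 0.64). Nmnat2, Slc6a14, Ahrr and Cyp1a1 averaged under 5 normalized counts in the wild-type tumors, so that they passed the minimum through skin alone. These splits depended on the scaling. Under upper quartile scaling 2 of the 8 enzymes were higher and 4 lower, beside 4391 and 4544 of all genes. Under total scaling 3 of 7 were higher and 2 lower, beside 5504 and 4043. Under either scaling 2 transporters were higher and 3 lower, and 1 receptor or target gene was higher and 4 lower.

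The same 4 enzymes were lower in MC38 cells than in skin, where 62% of all genes were called. Got2 (1.15 ± 0.17), Nmnat1 (1.23 ± 0.36) and Il4i1 (0.79 ± 0.17) were higher, the last being a value that could not be separated from Tbc1d17. Of the transporters, Slc3a2 (1.14 ± 0.36) and Slc7a11 (3.47 ± 0.16) were higher in the cells, and Slc7a8, Slc6a14, Slc6a19 and Slc36a4 were lower. Tiparp was higher by 1.80 ± 0.27, and Ahr, Ahrr, Cyp1a1, Cyp1b1 and Gpr35 were lower. Slc7a8, Slc6a14, Slc6a19, Ahrr, Cyp1b1 and Gpr35 were at 0 in both MC38 libraries. Nmnat2 and Cyp1a1 averaged 2.14 and 3.54 normalized counts there. All of these passed the minimum mean through skin alone, so that their calls carry no weight. Under total scaling 3 enzymes were higher in the cells and 2 lower, beside 5004 and 5680 of all genes. Of the transporters 3 were then higher and 4 lower, and of the receptor and target genes 1 and 4. Both comparisons share the skin libraries.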

How the data were processed

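The authors extracted total RNA, made QuantSeq 3′ libraries sequenced on the Ion Proton, trimmed reads with cutadapt and Trimmomatic, mapped them to mm10 with STAR and then Bowtie2, kept primary alignments, removed ribosomal reads, counted with HTSeq and scaled with DESeq2 size factors. Versions, annotation and strand setting are not given in the sources used here. The deposited values are counts divided by a size factor, a signal and not raw counts. In every library 100% of the values above 0 were whole multiples (within 0.1) of the value of 1 read, so reads were recovered.

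Tests were run with limma 3.58.1 (trend) in R 4.3.3 on log2(normalized count + 1) for genes averaging 5 or more, adjusted by Benjamini-Hochberg over all genes at 0.05. This understates changes of low genes. The 12 tumors were fitted together, or with MC38 or skin, and MC38 with skin alone. Single genes had exact two-sided permutation tests. edgeR 4.0.16 and DESeq2 1.42.0 on recovered reads were alternatives. The fit was tested on simulated data. Folds against groups at 0 put 3 reads over the group in place of 0 and are not lower limits, and floors per library use 3 reads. Intervals and floors cover counting error only.

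The 8 genes and the lists were chosen with earlier results of these data known. A gene of the pathway lists was named if called between genotypes or, for enzymes, transporters and receptor genes, in any comparison, and the 3 genes most like a member with a mean of at least 20 were named. Calls with 2 libraries per group rest on a spread shared across genes. A second table, of tumors under antibody treatment, has 6 columns whose names match no label and was not used. Libraries of a group differed beyond sampling noise (chi-square per degree of freedom 8.42 to 87.2). 1 gene of the interferon-gamma list is not reported here.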

Additional observations from a re-analysis of the deposited data

Results flagged for a closer look

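Kynu in WT day 23 replicate 1 measured 18.4 normalized counts (25 reads), while the next of the 6 wild-type tumors measured 6.34, so that its gap was 0.76 of the range of the group, past Dixon's critical value for 6 samples. It was 1 of 13 combinations of a gene and a genotype examined, and chance alone flags about 1 in 20. The same library had the most Ido1 reads (11) and Ido2 reads (12) of the 12 tumors. The cause of its Kynu level was not tested.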

How the results depend on the processing

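The number of genes of the set called between wild-type and RAG1-/- tumors, over both days and at day 23, and between time points stayed at 0 under all alternatives. A minimum mean of 20 normalized counts removes most of the enzymes, and only Wars averaged that much across the 12 tumors. With it, 1 was called for wild-type and 0 for RAG1-/- tumors against MC38 cells. Against skin 2 were called for wild-type tumors and 2 for MC38 cells. The share of all genes called at that minimum is not given here, so these counts are not read as results. Leaving out 1 library at a time gave 2 to 4, 2 to 3, 2 to 5 and 3 to 4 calls in the same order, and where 1 MC38 or skin library was left, that library was assumed to vary like the other groups. Between the genotypes over both days, leaving out 1 library moved the log2 fold change of Haao between -0.12 and 0.17 (below 0 without WT day 46 replicate 2 or 3, RAG1-/- day 13 replicate 1 or RAG1-/- day 23 replicate 1), that of Wars between -0.17 and 0.0301, and that of Afmid between -0.0791 and 1.09 (below 0 without RAG1-/- day 23 replicate 2), none of them called. The cause of these shifts was not tested. For the fits with 1 library left out, too, the share of all genes called is not given. Their counts of calls are therefore not read as results. On the recovered reads edgeR called 111 and DESeq2 283 of 14746 genes between the genotypes over both days, against 105 by limma, and 22 and 239 at day 23, against 41. Total or upper quartile scaling moved the share of higher genes among the called from 65.5% to 83.3% (upper quartile) for wild-type and from 67.6% to 80.3% for RAG1-/- tumors against MC38 cells, and from 33.5% to 46.8% (total) for MC38 cells against skin.

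The replicate numbers do not pair the tumors: the deviations of same-numbered tumors from their group means correlated between -0.28 and 0.37 over 18 pairs, 5 of them above 0.1, and the numbers mark different mice. With the replicate block, 3 genes of the set were called between wild-type tumors and skin in place of 5. The share of all genes called with that block is not given here, so this count is not read as a result. Wars between wild-type tumors and MC38 cells was then not called (-0.46, adjusted p by limma 0.077). Afmid between MC38 cells and skin was called (2.48, adjusted p by limma 0.019), having passed the minimum there through MC38 cells alone. Depth limits the statements on Ido1, Ido2 and Tdo2, which averaged under 5 normalized counts over the tumors and were not tested across genes.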
